A study of Nicotiana tabacum with 12 samples.

Results

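Of 44403 genes measured in tobacco seedlings 4 h after induction of the transcription factor AmMIXTA, 29 were selected on their 4 h values as lower in every induced library. The mean of the 3 control values had to be at least 5, and the largest induced value had to be under 0.6 times the smallest control value. Organelle genes, the locus LOC107759587 and genes with a lone inflated entry were left out, which removed none of the candidates. Since the 4 h values chose these genes, everything given for 4 h is a description without a test. The 48 h libraries took no part in the choice.

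The 12 libraries form 4 groups of 3, each library made from the pooled aerial parts of 15 seedlings of Nicotiana tabacum, cultivar Petit Havana SR1. The groups were seedlings given β-estradiol for 4 h (induced) and untreated seedlings collected at 4 h (control), both 7 days old, then seedlings given β-estradiol for 48 h and untreated seedlings collected at 48 h, both 9 days old. Both arms were grown from selected T2 seed of the stable transformation, in which a β-estradiol-inducible promoter drives AmMIXTA, so the controls are described as the same material without inducer. Seedlings given the inducer without the transgene and the level of AmMIXTA itself were not analysed here, and an effect of β-estradiol cannot be told apart from an effect of AmMIXTA.

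AmMIXTA is a MYB transcription factor of snapdragon, known for its part in the outgrowth of the conical cells of the petal epidermis, and related MYB proteins take part in the making of trichomes in other plants. Glandular trichomes are multicellular hairs whose head cells make and secrete resins and other compounds. In the estradiol system a chimeric receptor protein stays inactive until the hormone binds it, and then switches on the target promoter. The study used it to place the start of glandular trichome formation in time on cotyledons, organs that are bare of trichomes in this species. It read the early time for initiation and the later one for cells changing into trichome cells. Genes that go down after such a switch are one side of that response.

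In the deposited tables each read count has been divided by a library's own factor, and the 4 h and 48 h tables were scaled apart. They are called normalised values here. They are not divided by gene length, so a level is compared between libraries and not between genes. Recovered depth was 12457701 to 30103266 reads per library, except in control replicate 1, with 917871 reads at 4 h and 1240033 at 48 h, where a single read corresponded to 0.697 and 0.28 normalised units. Control replicates 2 and 3 at 48 h held the same reads in 42659 of 42659 genes and were counted as 1 sample, which leaves 2 control libraries at 48 h. The plastid-encoded genes of green tissue took 5.84%, 4.57% and 5.51% of the reads in the induced libraries at 4 h, against 7.4%, 6.99% and 6.57% in the controls. Transcripts of 10 genes named for root nicotine synthesis or nitrate and phosphate transport summed to 66.3, 29.4 and 56.7 in the induced libraries at 4 h and to 19.5, 9.28 and 9.81 in the controls, with none of the 10 at 0 in any of the 6. The names were read from the authors' tables of genes higher in induced seedlings. The higher root sums at 4 h therefore follow at least in part from how the list was made, and are no measure of tissue. The plastid share also moved with the groups at 4 h. The part of either in the fall of the 29 genes was not tested. At 48 h the plastid share was 8.52%, 6.28% and 6.87% in the induced libraries and 5.8% and 6.74% in the controls, and the root sum was 5.13, 11.4 and 14.0 in the induced libraries and 5.31 and 19.0 in the controls, so both overlapped. The trichome list held a single matched gene, LOC107775583, whose value was 1.5 to 2.44 in the induced libraries at 4 h against 1.87 to 2.21 in the controls. At 48 h it was 1.88, 1.64 and 1.31 in the induced libraries against 0.839 and 1.11 in the controls, without overlap. Its name too came from the tables of higher genes, so that difference is not independent of them. Its part in the 48 h values was not tested. A search by name in the tables of higher genes matched nothing for the epidermis list or the nuclear photosynthesis list. Genes that are named there in other words would have been missed. Genes outside those tables had no description to search, so such genes may well be among those measured.

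The 29 genes are few against the whole table: they are 0.148% of the 19580 genes whose 4 h control mean was at least 5. The mirror image of the rule, with every induced library above every control by the same margin and an induced mean of at least 5, was met by 3 genes. Of the 29, 28 matched by symbol the gene table that RefSeq gives for the assembly ASM71507v2. It lists 26 of them as protein-coding and 2, LOC107782728 and LOC107764347, as long non-coding RNAs, transcripts without a known protein product. Over all 39341 matched genes of the 4 h table, 89.0% were protein-coding and 7.88% were long non-coding RNAs. The symbols are locus numbers only. No description stands beside any of the 29 in the deposited tables or in the RefSeq table, so no function is given for them here.

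The ratio of the induced mean to the control mean at 4 h ran from 0.142 to 0.524 over the 29 genes, with a median of 0.333. It was under 0.5 in 28 of them and under 0.25 in 7. Control means lay between normalised values of 6.41 and 77.8, with a median of 17.8, so the set holds weakly and moderately represented transcripts. The median difference was -1.55 on the log2(value + 0.5) scale, beside 0.02 over all genes, which follows from the rule. In bulk seedlings, fewer cells of a type that makes a transcript and less of it per cell cannot be told apart.

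LOC107826071 had the lowest ratio, 0.142. Its normalised values at 4 h were 0.884, 1.00 and 1.35 in the induced libraries, against 9.75, 9.35 and 3.62 in the controls. Control replicate 3 stood well below the other 2 controls and still lay above every induced library. LOC107797524 had values of 3.85, 3.16 and 4.53 in the induced libraries and 23.0, 27.3 and 25.0 in the controls, a control mean 6.53 times the induced mean. Here both groups were tight, with means of 3.85 ± 0.683 in induced and 25.1 ± 2.17 in control seedlings (SD, n = 3 each). LOC107772048 fell steeply too, with 8.51, 9.65 and 8.67 in the induced libraries and 50.2, 61.1 and 53.1 in the controls. Its largest induced value was 0.192 of its smallest control value, the widest gap of the 29 by that measure.

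LOC107800570 had 2.10, 0.961 and 1.53 in the induced libraries, against 9.75, 9.22 and 8.01 in the controls. LOC107805047 had 2.46, 1.05 and 2.25 in the induced libraries, against 11.8, 12.7 and 4.85 in the controls. LOC107825339 had 4.21, 2.29 and 4.35 in the induced libraries, against 18.1, 23.3 and 9.79 in the controls. In the last 2 genes control replicate 3 was again the low control, at 0.396 and 0.473 of the mean of the other 2. LOC107769553 had 11.1, 14.3 and 11.6 in the induced libraries and 55.0, 66.0 and 43.1 in the controls. Its groups lay far apart, the control mean being 4.45 times the induced mean.

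LOC107823556 had 4.83, 3.27 and 5.01 in the induced libraries and 18.1, 13.9 and 17.3 in the controls. LOC107764619, the member with no match in the RefSeq table, had 2.56, 2.14 and 4.77 in the induced libraries and 12.5, 14.3 and 8.01 in the controls. LOC107793937 had 5.73, 4.40 and 5.67 in the induced libraries and 20.2, 19.3 and 13.8 in the controls. These 3 close the 10 lowest ratios, at 0.266, 0.272 and 0.297, and LOC107764619 came nearest of the 10 to the limit of the rule, with induced replicate 3 high and control replicate 3 low.

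The 2 genes with the highest control means had ratios of 0.390 and 0.454, above the median. LOC107820178 had 31.3, 28.6 and 31.1 in the induced libraries and 80.1, 72.2 and 81.1 in the controls. LOC107796659 had 31.9, 28.7 and 41.3 in the induced libraries and 73.2, 70.2 and 81.0 in the controls. The induced values of the first were tight (SD 1.52), while those of the second had an SD of 6.54 with induced replicate 3 high, and the control mean was 2.57 and 2.20 times the induced mean. LOC107832117 was the most even, with 13.8, 13.4 and 13.1 in the induced libraries and 39.0, 40 and 41.9 in the controls. LOC107795910 had 16.7, 14.4 and 17.8 in the induced libraries, against 41.8, 52.3 and 45.1 in the controls, and LOC107762540 had 15.4, 12.8 and 17.7, against 41.8, 54.0 and 42.0 in the controls. Each of these 3 was about as low, relative to its controls, as the median member. LOC107802378 had 10.3, 14.5 and 10.4 in the induced libraries and 33.4, 45.5 and 29.8 in the controls. LOC107823775 had 11.4, 13.0 and 13.6 in the induced libraries and 27.2, 32.5 and 23.3 in the controls. For the first of these 2 the second replicate was the highest in both groups.

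Both long non-coding RNAs were lower in all induced libraries. LOC107782728 had 5.73, 6.92 and 4.86 in the induced libraries, against 13.2, 13.1 and 19.3 in the controls. LOC107764347 had 14.2, 15.1 and 15.1 in the induced libraries and 27.2, 32.2 and 25.1 in the controls, the smallest fall of the set at a ratio of 0.524. LOC107763197 had 5.42, 6.62 and 7.11 in the induced libraries, against 17.4, 16.0 and 16.2 in the controls. Unlike most members, LOC107782728 had its highest control value in replicate 3, while LOC107763197 showed almost no spread among its controls (SD 0.795 around a mean of 16.5). LOC107799559 had 5.02, 3.97 and 7.47 in the induced libraries and 17.4, 18.9 and 14.3 in the controls. The 6 members not named with their values (LOC107798225, LOC107823316, LOC107793790, LOC107775721, LOC107779568 and LOC107829540) had ratios of 0.305, 0.339, 0.384, 0.391, 0.469 and 0.481.

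**Figure D1:**
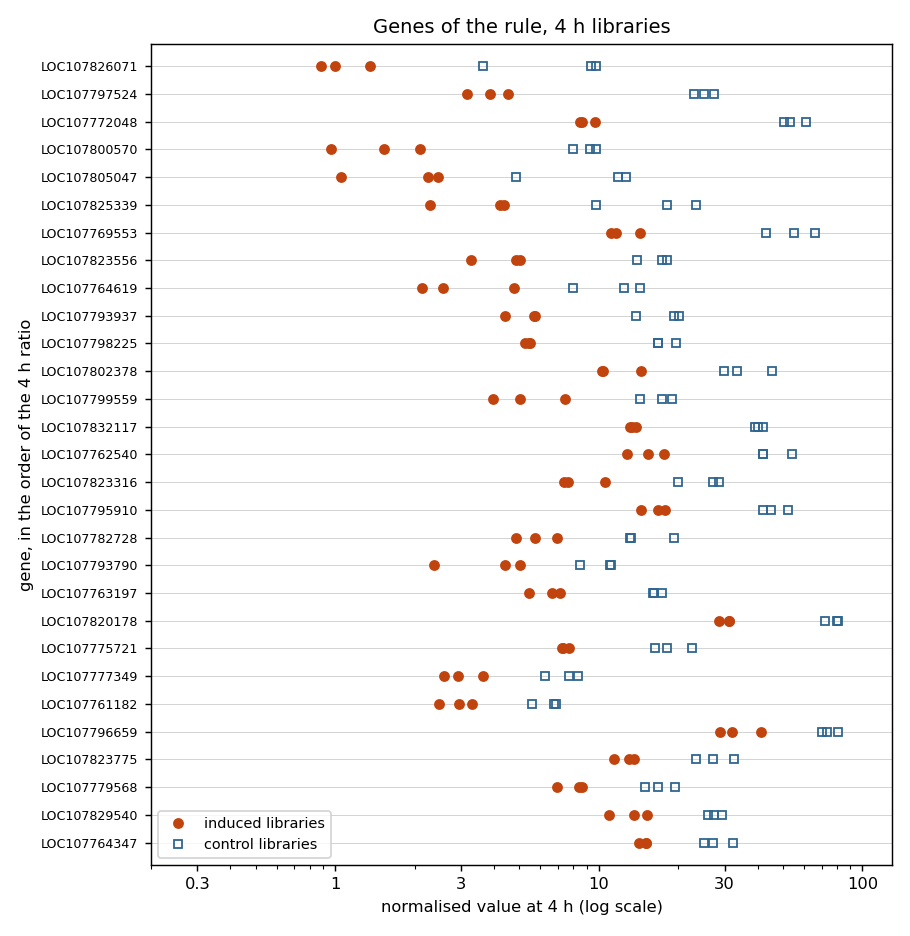
Normalised values of the 29 genes in each 4 h library on a log axis, with 1 row for each gene in the order of the ratio of group means (lowest on top), filled circles for the 3 induced libraries and open squares for the 3 control libraries. In every row the circles lie left of the squares, which is what the rule asked for, and the gap narrows from a ratio of 0.142 at the top to 0.524 at the bottom.

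Near the limits of the rule the genes formed a continuum. The 2 members closest to the ratio of 0.6 were LOC107764347 and LOC107764619, whose largest induced value was 0.5998 and 0.5949 of the smallest control. Just outside stood LOC107775293 at 0.6012, with 49.9, 51.9 and 51.1 in the induced libraries and 86.4, 94.2 and 94.3 in the controls, and LOC107761637 at 0.6024. At the lower end of the level, LOC107761182 and LOC107777349 were inside with control means of 6.41 and 7.43. LOC107761182 had 2.48, 3.29 and 2.94 in the induced libraries and 5.57, 6.86 and 6.78 in the controls, and LOC107777349 had 2.58, 3.65 and 2.91 against 6.27, 8.31 and 7.71 in the controls. LOC107799055 and LOC107772155 were outside with control means of 4.99 and 4.74, and with largest induced values of 0.5234 and 0.5487 of the smallest control.

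The 29 genes shared a pattern among the 4 h controls that the rule did not ask for. Control replicate 3 was the lowest control in 16 of the 29, against 21.4% of the genes with a control mean of at least 5, and control replicate 2 was the highest in 18, against 39.9%. The median ratio of control replicate 3 to the mean of replicates 1 and 2 was 0.877 for the 29 genes and 1.04 for all genes. Control replicate 3 was under 0.6 of that mean in 4 of them, LOC107826071, LOC107805047, LOC107825339 and LOC107764619. The rule bears on the smallest control value, so these orders are not independent of it. Control replicate 1, the shallow library, held 8 to 115 reads per gene of the 29 and every other 4 h library held 37 to 3156. Leaving it out of the rule raised the list to 35. All 29 stayed on it, but dropping a control can only ease the ratio, so this says little about their dependence on that library.

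At 48 h the same genes were measured in libraries that the rule did not see, and most were no longer apart. All 29 were in the 48 h table and all passed its filter (a value of at least 1 in 3 of the 5 distinct libraries). By limma with Benjamini-Hochberg adjustment over 31565 genes, 1 of the 29 was called at an adjusted p under 0.05, and it was higher in induced seedlings. In all, 4 genes or 0.0127% were called, 3 of them higher and 1 lower. At an unadjusted p under 0.05, 8 of the 29 passed, 5 of them lower, beside 5.88% of all genes. The median log2 fold change of the 29 was -0.15, with 19 below 0 and 10 above, beside 0.02 over all genes tested, of which 45.8% were below 0. That median was -0.271 without induced replicate 3, -0.26 without control replicate 2, -0.083 without induced replicate 2 and -0.064 without control replicate 1. The call threshold was missed by 28 members, with adjusted p of 0.124 to 0.999, which does not show that they were equal in the 2 groups. With 3 induced and 2 control libraries, a few of them with small spreads, a p-value here reflects the variation among these libraries alone, and part of that may be technical.

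In 5 of the 29 genes all induced libraries lay below both controls at 48 h, against 8.94% of all genes tested, and in 4 all induced libraries lay above both, against 12.4%. The groups overlapped in the other 20. The 5 lower ones were LOC107772048, LOC107825339, LOC107769553, LOC107802378 and LOC107762540. LOC107772048 had 7.92, 6.64 and 10.6 in the induced libraries and 11.2 and 18.5 in the controls (log2 fold change -0.77 with an SE of 0.25, limma adjusted p = 0.698). LOC107769553 had 14.8, 11.6 and 21.6 in the induced libraries and 27.4 and 29.0 in the controls (log2 fold change -0.84 with an SE of 0.22, limma adjusted p = 0.493). Both lay below their controls by a smaller margin than at 4 h, and neither passed the test. LOC107825339 had 5.82, 5.56 and 4.47 in the induced libraries, against 10.1 and 8.30 in the controls, a difference of -0.74 on the log2 scale (SE 0.15, limma adjusted p = 0.124). LOC107802378 had 6.32, 6.39 and 9.36 in the induced libraries, against 14.5 and 11.6 in the controls, a difference of -0.80 on the log2 scale (SE 0.17, limma adjusted p = 0.143). LOC107762540 had 8.98, 12 and 12.8 in the induced libraries and 15.7 and 13.2 in the controls, a log2 fold change of -0.35 (limma adjusted p = 0.791).

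**Figure D2:**
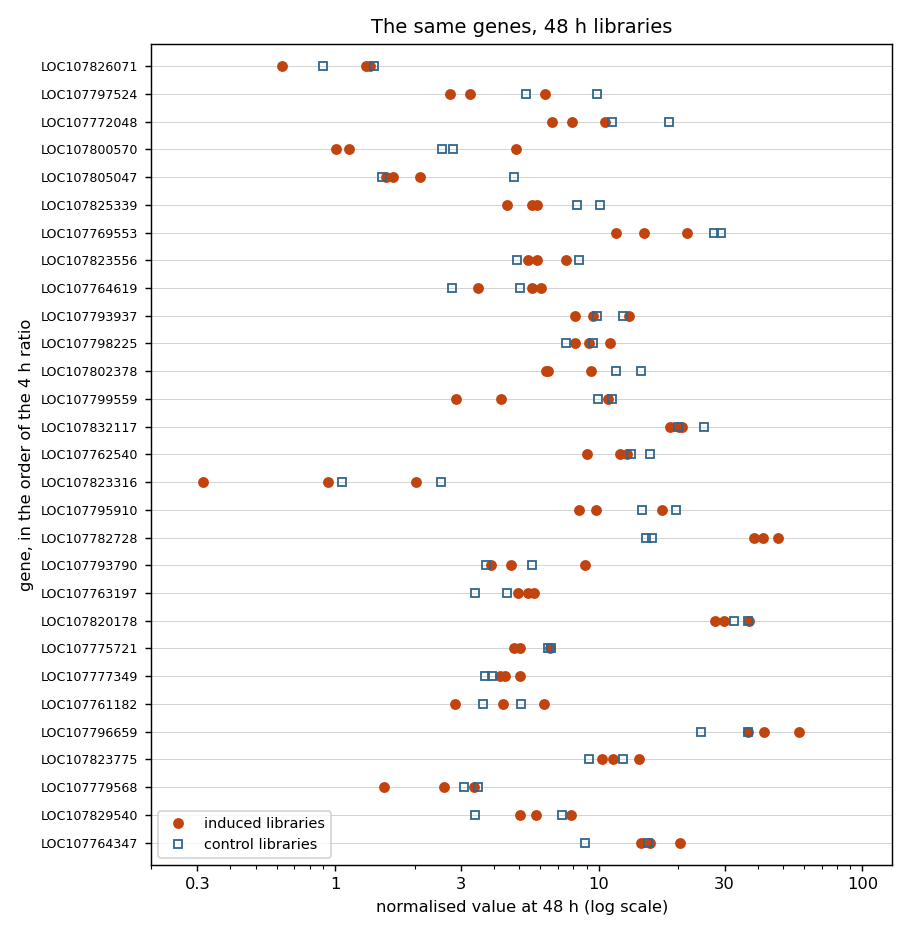
Normalised values of the same 29 genes in each distinct 48 h library on a log axis, in the row order of the 4 h plot, with filled circles for the 3 induced libraries and open squares for the 2 control libraries. Circles and squares overlap in 20 rows, circles lie left of both squares in 5, and in the row of LOC107782728 the circles (38.7 to 47.9) lie far to the right of the squares (15.1 and 15.9).

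LOC107782728, 1 of the 2 long non-coding RNAs, was the member called at 48 h. Its normalised values were 38.7, 41.8 and 47.9 in the induced libraries, against 15.9 and 15.1 in the controls. It was thus higher in all 3 induced libraries, with a difference of 1.43 on the log2 scale (SE 0.13, limma adjusted p = 8.12e-05), after having been lower in all 3 at 4 h. Among the 604 genes that the authors' deposited table gives as higher at 48 h it is listed too, with a fold of 2.78 and an unadjusted p-value of 0.000539. The authors' values come from the same libraries, so the listing is not independent of the values above. With the repeated control counted once, the ratio of the means was 2.75. The authors' p-value may count that control as 2 samples, which was not tested. No other of the 29 genes is in the authors' table.

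The other 3 genes above both controls at 48 h differed by less and did not pass the test. LOC107796659 had 42.5, 36.9 and 57.7 in the induced libraries and 36.9 and 24.4 in the controls (log2 fold change 0.57 with an SE of 0.22, limma adjusted p = 0.772). Its lowest induced value exceeded its highest control value by hardly anything, 36.932 beside 36.921. LOC107763197 had 5.38, 4.95 and 5.66 in the induced libraries and 4.48 and 3.38 in the controls (log2 fold change 0.41 with an SE of 0.16, limma adjusted p = 0.714). LOC107777349 had 4.22, 5.02 and 4.41 in the induced libraries and 3.92 and 3.70 in the controls, a log2 fold change of 0.23 (limma adjusted p = 0.939). The other long non-coding RNA, LOC107764347, had 15.6, 14.4 and 20.3 in the induced libraries and 15.4 and 8.90 in the controls, where the groups overlap (log2 fold change 0.48, limma adjusted p = 0.901).

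Among the genes with the steepest falls at 4 h, LOC107826071 had 0.626, 1.31 and 1.36 in the induced libraries at 48 h and 1.40 and 0.898 in the controls. Its control values were thus no longer apart from the induced ones, with a log2 fold change of -0.07 (limma adjusted p = 0.992) that turned to 0.168 with the library number as a block. LOC107797524 had 3.25, 2.72 and 6.25 in the induced libraries and 5.31 and 9.88 in the controls, a difference of -0.84 on the log2 scale (SE 0.45, limma adjusted p = 0.929). LOC107800570 had 1.13, 1.01 and 4.83 in the induced libraries and 2.80 and 2.54 in the controls, and LOC107799559 had 4.26, 2.88 and 10.8, against 11.2 and 9.96 in the controls. In these last 3 genes induced replicate 3 alone reached the level of the controls. The 10 genes with the lowest 4 h ratios had log2 fold changes of -0.84 to 0.35 at 48 h, 9 below 0 and 1 above, and the other 19 had 10 below 0 and 9 above. Whether these shares differ was not tested.

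**Figure D3:**
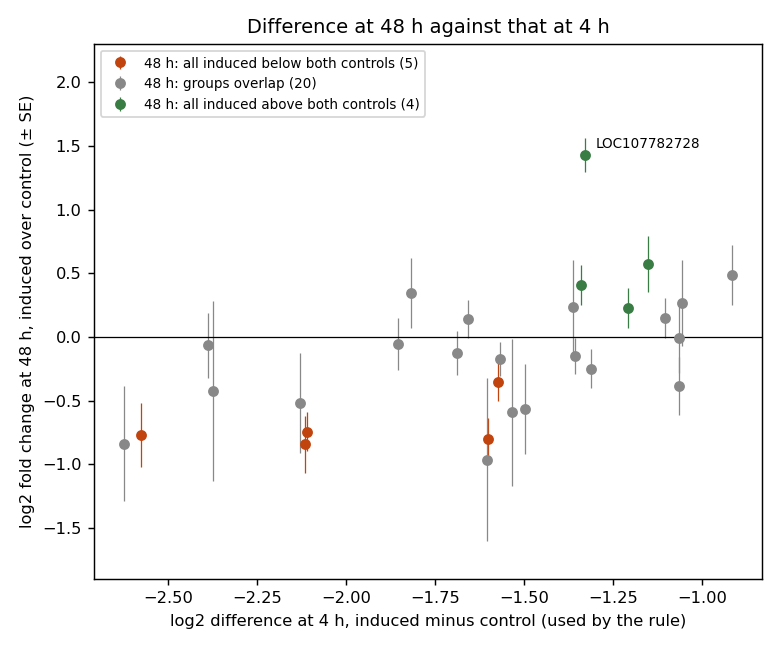
Log2 fold change at 48 h, induced over control, from limma (vertical axis, bars ± SE) against the log2 difference at 4 h, induced minus control, on the scale common to both times (horizontal axis), with 1 point for each of the 29 genes and colours for whether the 48 h groups overlap. All points lie left of 0 by the rule, 19 lie below 0 and 10 above 0 on the vertical axis, and LOC107782728 stands alone at 1.43.

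One induced library at 48 h stood apart for these genes. Induced replicate 3 was the highest of the 3 induced libraries in 24 of the 29 genes, against 32.8% of all genes tested, and the median ratio to the mean of induced replicates 1 and 2 was 1.35, against 0.996 for all genes. Control replicate 1 was above control replicate 2 in 22 of the 29, against 43.9% of all genes, with a median ratio of 1.25 against 0.968. Both held in 19 of the 29 and in 18.0% of all genes. Control replicate 1 is the shallow library, with 5 to 132 reads per gene of the 29 at 48 h, while the others had 14 to 3785.

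These 2 libraries carry the same library number, 4, in the sample descriptions, and libraries of 1 number were found to deviate together. Induced replicate 3 against control replicate 1 gave 13 of the 29 genes lower and 16 higher, with a median log2 difference of 0.01, beside 44% of all genes lower and a median of 0.04. Induced replicate 2 against control replicate 2, both of number 3, gave 16 lower and 13 higher, with a median of -0.13, beside 49.4% of all genes lower and a median of 0.004. With the library number as a block, limma called 5 of the 29 genes, where it called 478 or 1.51% of all genes. They were LOC107825339 at -0.81 (adjusted p = 7.21e-05), LOC107802378 at -0.71 (adjusted p = 6.9e-05), LOC107782728 at 1.497 (adjusted p = 1.89e-21), LOC107796659 at 0.61 (adjusted p = 5.48e-06) and LOC107764347 at 0.53 (adjusted p = 0.00185). That fit rests on 2 pairs at 48 h, and its small p-values come mostly from the variance that limma pools over genes. Without induced replicate 3, limma called 5 of the 29 genes as well, beside 63 or 0.205% of all genes, then LOC107769553 at -1.08, LOC107802378 at -0.98, LOC107799559 at -1.46 and LOC107795910 at -0.87 as lower and LOC107782728 as higher, and 13 of the 29 lay below both controls, against 15.6% of all genes.

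**Figure D4:**
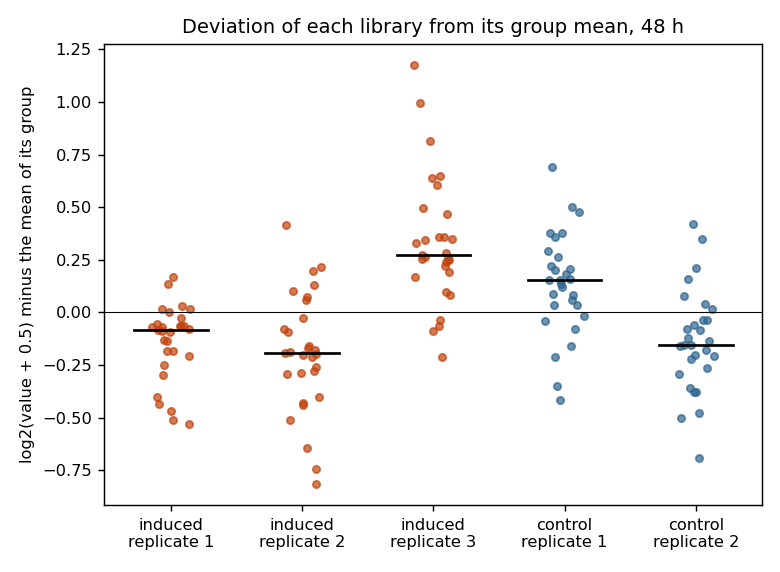
Deviation of each 48 h library from the mean of its group on the log2(value + 0.5) scale, with 1 point for each of the 29 genes and a bar at the median of each library. The median is -0.09 and -0.19 in induced replicates 1 and 2, 0.27 in induced replicate 3, and 0.15 and -0.15 in the 2 controls, which mirror each other because they are 2.

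To set the 2 times side by side, the reads of both tables were put on 1 scale of CPM (reads scaled to a common library total) over 19550 genes. The rule chose genes with low 4 h induced and high 4 h control values. That choice alone favours 48 h values above the former and below the latter. The shares over all genes carry no such choice, so this too is a description. The 48 h controls lay above all 4 h induced libraries in 25 of the 29 genes, against 18.1% of all genes. The 48 h induced libraries lay above all 4 h induced libraries in 20, against 17.1%. The 4 h controls lay above both 48 h controls in 15, against 28.3%, and in 22, against 44.2%, when control replicate 1 of both times was left out. The count of 25 stayed at 25 without it, while the share of all genes became 31.2%. The median difference of the 29 was 1.16 on the log2 scale between the 48 h controls and the 4 h induced seedlings, 0.95 between 48 h induced and 4 h induced seedlings, and -0.46 between the 48 h and 4 h controls. Over all genes these medians were -0.07, -0.03 and -0.05.

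The time course differed between genes on that scale. LOC107772048 had 12.8, 14.5 and 13.0 CPM in induced seedlings at 4 h against 77.0, 91.6 and 79.7 CPM in controls, and 22.4, 18.8 and 30.1 CPM in induced seedlings at 48 h against 31.7 and 52.3 CPM in controls. Its controls were lower at 48 h than at 4 h while its induced libraries were higher. LOC107826071 had means of 1.62 and 11.5 CPM in induced and control seedlings at 4 h, and of 3.11 and 3.25 CPM at 48 h. Its control mean at 48 h was thus below that at 4 h and near the induced mean of 48 h. Both 48 h means lay above the 4 h induced mean. LOC107820178 had means of 45.6 and 118 CPM in induced and control seedlings at 4 h, and of 89.4 and 98.6 CPM at 48 h, so that its induced libraries were close to its controls by then. LOC107782728 had means of 8.78 and 23.0 CPM in induced and control seedlings at 4 h, and of 121 and 44 CPM at 48 h. It was higher at 48 h in both arms, and far more so in induced seedlings.

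**Figure D5:**
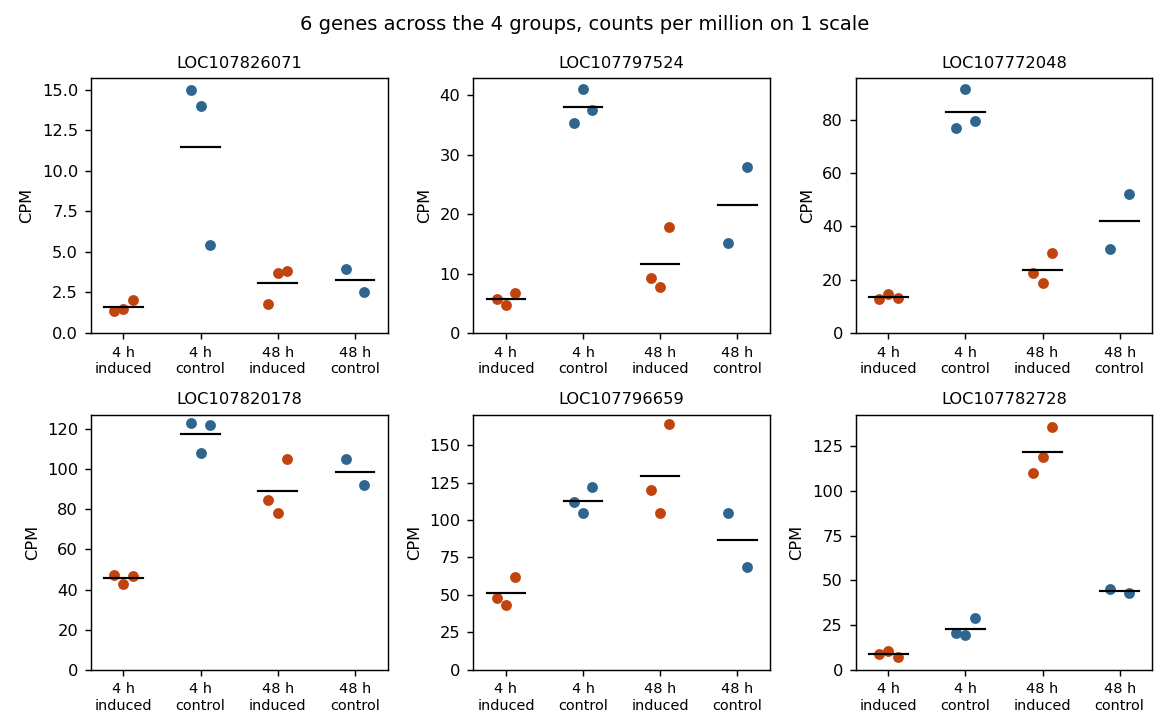
CPM on 1 scale for 6 genes (the 3 lowest 4 h ratios, the 2 highest 4 h control means and LOC107782728) in induced and control libraries at 4 h and then at 48 h, with 1 point for each library and a bar at the mean. The first 5 genes have their lowest mean in 4 h induced seedlings, as does LOC107782728, whose highest mean is in 48 h induced seedlings at 121 CPM.

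The genes next to the 29 on the chromosomes had a median difference near 0 at 4 h. RefSeq places 56 genes directly beside the members, and 28 of them were measured at 4 h. Their median difference was -0.02 on the log2 scale, with a range of -0.55 to 0.67, and none of the 56 is itself a member. In 3 of the 28 all induced libraries lay below all controls, against 4.87% of all genes with a value of at least 1 in 3 libraries. These were LOC107818668 beside LOC107769553 at -0.55, LOC107796662 beside LOC107796659 at -0.38 and LOC107829539 beside LOC107829540 at -0.41. In 1, LOC107764364 beside LOC107764347, all induced libraries lay above all controls, at 0.24. These 4 genes were named after their values were seen. The closest pair of members, LOC107823775 and LOC107796659, has 7 annotated genes between them.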

How the data were processed

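The authors deposited, for each time, a table of all genes whose unit is a signal: all values of a library are whole multiples of a single step, as read counts over a library factor would be. The submitters' processing notes name edgeR. For aligner, counter, build and annotation, nothing is given in the sources used here. The authors' deposited tables of higher genes hold a ratio, the fold of the group means, and an unadjusted p-value. The members, lists and tests were chosen with earlier results of these data known.

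Divided by the step, 100% of the values were whole numbers of reads within 0.01. Genes with a single value above 5000 and 20 times the gene's median (4 at 4 h, 14 at 48 h) were left out. The 4 h values chose the members. At 48 h, limma 3.58.1 in R 4.3.3, with an intensity trend and robust moderation, was fitted to log2(value + 0.5) over all genes with a value of at least 1 in 3 of 5 distinct libraries, adjusted by Benjamini-Hochberg and called at 0.05. Log2 fold changes on that scale understate the change of low genes. The fit was run on simulated reads with the same small spread for every gene and no deviation shared between libraries. That checks the code, and not how well the fit suits these libraries. Alternatives used edgeR 4.0.16 and DESeq2 1.42.0 on the recovered reads. The common CPM scale used TMM factors. Root and trichome lists came from gene names in the authors' tables of higher genes.

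Named members were the 10 with the lowest 4 h ratio, the 10 with the highest 4 h control mean, those called at 48 h, the 5 largest 48 h differences each way and those at the limits of the rule. Control replicates 1, 2 and 3 carry library numbers 4, 3 and 2 in the descriptions and induced replicates 1, 2 and 3 carry 2, 3 and 4. Deviations from the group means of libraries with 1 number correlated at 0.18, 0.262 and 0.168 over 17067 genes at 4 h, and other pairings at -0.205 to 0.0581. At 48 h the 2 pairings of 1 number correlated at 0.447 and 0.523 over 9680 genes. With 2 controls there, the other control gives the same value with the opposite sign. The numbers were therefore taken to pair libraries, which is inferred from the values. The main fit has no block, and the fit blocked by library number stands beside results that it alters. RefSeq's table (ASM71507v2) was used for names and neighbours only.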

Additional observations from a re-analysis of the deposited data

Results flagged for a closer look

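In 4 of the 29 genes every induced library lay below every control at 4 h, by the rule, and every induced library lay above both distinct controls at 48 h. The log2 fold change at 48 h was 1.43 for LOC107782728, 0.41 for LOC107763197, 0.23 for LOC107777349 and 0.57 for LOC107796659. The difference between the 2 times was not tested, since the 4 h values chose the genes. Of all genes, 12.4% lay above both controls at 48 h in this way. A count of 4 in 29 is close to that share, so it does not set these genes apart. LOC107796659 met it only narrowly, with 36.932 beside 36.921. In the unpaired limma fit the first of the 4 passed the 48 h test. In the fit blocked by library number LOC107782728 (1.497, adjusted p = 1.89e-21) and LOC107796659 (0.613, adjusted p = 5.48e-06) passed.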

How the results depend on the processing

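LOC107782728 kept its call in 16 of 17 alternatives, with log2 fold changes of 1.345 to 1.497, and lost it without trend and robust moderation (adjusted p = 0.117). Members called at 48 h numbered 0 without trend and robust moderation, 5 with the library-number block, 8 with the title-number block and 1 to 5 when 1 library was left out. Genes called numbered 18 without a filter, 2 with values of at least 5, 2 with edgeR, 13 with DESeq2, 0 without trend and robust moderation, 478 and 144 with the library-number and title-number blocks, and 3 to 63 when 1 library was left out (46 without induced replicate 2, 63 without induced replicate 3). Members below every remaining control numbered 5 to 13 when 1 library was left out. There were 5 without induced replicate 1, beside 14.3% of all genes, and 6 without induced replicate 2, beside 14.8%. Without induced replicate 3 there were 13, beside 15.6%. With 1 control left there were 9 without control replicate 1, beside 25.8%, and 11 without control replicate 2, beside 19.4%. The median of the 29 ran from -0.271 to -0.064 in the same fits. The 48 h log2 fold change of LOC107826071 turned positive with edgeR (0.184), DESeq2 (0.089), the repeated library as 2 samples (0.009), the library-number block (0.168) and without induced replicate 1 (0.168). When 1 library was left out it ranged from -0.286 to 0.168 where it passed the filter, and that of LOC107764619 from -0.033 (without control replicate 2) to 0.724. Some others moved by over 1.5 times without changing sign: LOC107764347 (0.105 to 0.862), LOC107796659 (0.279 to 0.868), LOC107763197 (0.227 to 0.585), LOC107797524 (-1.258 to -0.422), LOC107772048 (-1.122 to -0.42), LOC107762540 (-0.475 to -0.206) and LOC107799559 (-1.463 to -0.593). Further members did change sign. Without control replicate 1, LOC107805047 went from -0.521 to 0.173 and LOC107823556 from -0.057 to 0.301. Without control replicate 2, LOC107829540 went from 0.266 to -0.235 and LOC107793790 from 0.232 to -0.032. Of the members tested, 14 lay below 0 and 13 above without control replicate 1. Without control replicate 2 these were 22 and 6. The rule found 16 genes at a ratio of 0.5, all of them members, and 59 at 0.7. It found 33 to 48 when 1 library was left out (47 without induced replicate 3, 48 without control replicate 3). Each of these lists held all 29, which a rule on fewer libraries almost ensures. TMM scaling gave 31 genes, 28 of them shared. The causes were not tested, except that fewer libraries make the rule easier to meet. The counts without control replicate 1 on the common scale were added after the data were seen. The comparisons of copies and of promoter motifs were not run. With 2 control libraries at 48 h and 1 read worth 0.28 in one of them, small differences were not detectable.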
